A study of Mus musculus with 9 samples.

Results

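The proteasome genes of the mouse spinal cord were followed through a knockdown of C9orf72. The members were chosen by symbol: names beginning with Psma to Psmf and a number, or Psmg and a number, without Psmb8 and Psmb9 and without pseudogenes, and with a value of at least 0.5 in at least 3 of 9 libraries. The rule found 44 of the 14831 genes in the table. It matched 48 symbols of the reference annotation, and the minimum value removed none of the 44 that had a row. Psma8, Psmb11, Psme1 and Psme2b were not analysed here. The 44 hold 7 alpha and 7 constitutive beta subunits of the 20S core, the inducible beta subunit Psmb10, 17 subunits of the 19S particle, 3 activators, 1 inhibitor and 7 assembly chaperones. The last, Psmc3ip, encodes a protein of meiotic recombination and fits the symbol pattern only, so that counts were also made over the other 43.

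The spinal cords came from wild-type C57Bl/6 females, 10 weeks old, and were dissected 2 weeks after an injection of 10 µl into the right lateral ventricle. Whole-tissue RNA was sequenced with strand-specific libraries. In the C9orf72 ASO group (3 libraries) the injection held 500 µg of an antisense oligonucleotide (ASO), a short synthetic strand that pairs with an RNA and lowers it, against mouse C9orf72. The control ASO group (3 libraries) received 500 µg of a control ASO, and the saline group (3 libraries) received saline. Replicate numbers only name libraries within a group, in the order of their records, and pair none across groups. The strain is missing from the tags of 1 control ASO library and given by its source name. The study asks what loss of C9orf72, the gene whose repeat expansion causes a form of amyotrophic lateral sclerosis and frontotemporal dementia, does in this tissue. These animals carry no expansion, and the label names only lowering of the mouse gene. Nothing states that each library is a mouse of its own, so that p-values measure the spread between these libraries, which may be technical.

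The proteasome degrades proteins that carry ubiquitin chains. Its 20S core is a barrel of alpha and beta rings with the proteolytic sites inside, and the 19S particle that caps it holds a base with a ring of ATPases, which unfold the substrate and open the barrel, and a lid, which removes the ubiquitin. In neurons and glia it works beside autophagy to clear damaged and aggregation-prone proteins, and its genes are induced together by the transcription factor Nfe2l1 (also called Nrf1) when proteolysis falls short.

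Nfe2l1 binds antioxidant response elements, so the bases upstream of the start sites of the members were searched for TGACNNNGC and, for a common promoter element, CCAAT, on both strands. Promoters from RefSeq (GRCm38.p6) could be matched to 37 of 44 members, and the window was the 250 bases before the start. The bases after the start were found in a transcript of the gene for 35 of 40 member promoters, some genes having more than 1, and not for that of Psmb6. TGACNNNGC was found in 5 of 37 (13.5%, against 11.5% of 27025 genes), in Psmb5, Psmb6, Psmc6, Psmd12 and Psmd9. CCAAT was found in 13 of 37 (35.1%, against 37.5%), and among the 7 alpha subunits CCAAT was present in 5 and TGACNNNGC in 0. Both shares were within a few points of those of all genes, and a match is a description of the letters only. The 100 bases before the start are shown for a catalytic subunit and a 19S chaperone with TGACNNNGC and for 2 alpha subunits with CCAAT, 5′ to 3′, with the matched letters in capitals.
Psmb5 (chr14:54617996-54618095, minus strand): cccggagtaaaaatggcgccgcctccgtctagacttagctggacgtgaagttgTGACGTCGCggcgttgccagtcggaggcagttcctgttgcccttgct
Psmd9 (chr5:123228090-123228189, plus strand): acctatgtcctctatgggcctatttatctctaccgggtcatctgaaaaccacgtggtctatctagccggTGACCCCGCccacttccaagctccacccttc
Psma2 (chr13:14613142-14613241, plus strand): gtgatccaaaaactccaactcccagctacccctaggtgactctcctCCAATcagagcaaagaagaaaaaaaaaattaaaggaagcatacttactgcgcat
Psma6 (chr12:55384122-55384221, plus strand): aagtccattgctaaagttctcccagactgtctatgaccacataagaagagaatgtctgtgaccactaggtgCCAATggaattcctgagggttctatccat
Of these genes Psmb5, Psma2 and Psma6 had C9orf72 ASO libraries that all lay above the control ASO libraries (background 10.1% of all genes), and Psmd9 did not. The remaining genes with TGACNNNGC, Psmb6, Psmc6 and Psmd12, did not either. Of the remaining alpha subunits with CCAAT, Psma1 and Psma7 did and Psma3 did not. A link between these letters and the fold changes was not tested.

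The authors' values were taken as RPKM, read numbers scaled to transcript length and library size, so that levels can be compared between genes. The step between low values gave 90.5 to 123.9 M reads per library, and each value under 0.5 RPKM stands at 0.1 in the table. All 44 members were at 1.04 RPKM or more in every library. C9orf72 itself had 2.68, 3.40 and 3.12 RPKM in the C9orf72 ASO libraries, 11.2, 11.7 and 10.6 RPKM in the control ASO libraries and 10.5, 11.4 and 11.5 RPKM in the saline libraries. Its mean with the C9orf72 ASO was 27.5% of the control ASO mean and 27.6% of the saline mean (log2 fold change -1.84 against the control ASO, exact permutation test against both control groups, two-sided, p = 0.0119, the smallest that 84 splits allow). No pair of libraries had identical values. Neuron, astrocyte and oligodendrocyte markers were present in every library, and none of the marker genes that could be read stood at 0.1 in all of them. The 6 neuron markers summed to 2688 to 3011 RPKM with the C9orf72 ASO and 3018 to 3186 RPKM with the control ASO. With saline they summed to 2817 to 3019 RPKM. Against the control ASO the fold changes of these 6 and of the 4 motor neuron markers were all below 0, beside 45.8% of all genes above 0. The astrocyte and oligodendrocyte sums overlapped between the groups. The summed level of 7 microglia markers was 176 to 192 RPKM with the C9orf72 ASO, 145 to 155 RPKM with the control ASO and 142 to 161 RPKM with saline. The 4 endothelial markers summed to 15.2 to 18.8 RPKM with the C9orf72 ASO, 16.6 to 24.4 RPKM with the control ASO and 24.1 to 31.0 RPKM with saline. The 7 blood markers summed to 751 to 1264 RPKM with the C9orf72 ASO, 726 to 2927 RPKM with the control ASO and 852 to 935 RPKM with saline. Their part in the results that follow was not tested. In whole tissue, fewer cells of a type and less RNA per cell cannot be told apart.

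The proteasome was expressed well above the typical gene. The 14 constitutive subunits of the 20S core averaged 32.5 to 99.3 RPKM over the 9 libraries, with a median of 50.5 RPKM, and the 17 subunits of the 19S particle 22.8 to 152 RPKM, with a median of 47.7 RPKM. The median over the 14430 genes tested was 7.96 RPKM. Every 20S core subunit and every one of the 17 19S subunits stood above the levels of the 7 assembly chaperones among the members. These subunits also stood above the inhibitor Psmf1 and the activators Psme2 and Psme4. Pomp, an assembly chaperone outside the rule, averaged 82.8 RPKM. The highest member, Psmc5, was 113-fold above the lowest, Psmc3ip, and 27.4-fold above the lowest proteasome gene, Psmg4. Subunits that enter the complex in equal number thus differed 3.05-fold in RPKM within the 20S core and 6.65-fold within the 19S particle. The authors' counter and annotation are not named in the sources used here, so these spans between genes are uncertain.

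**Figure D1:**
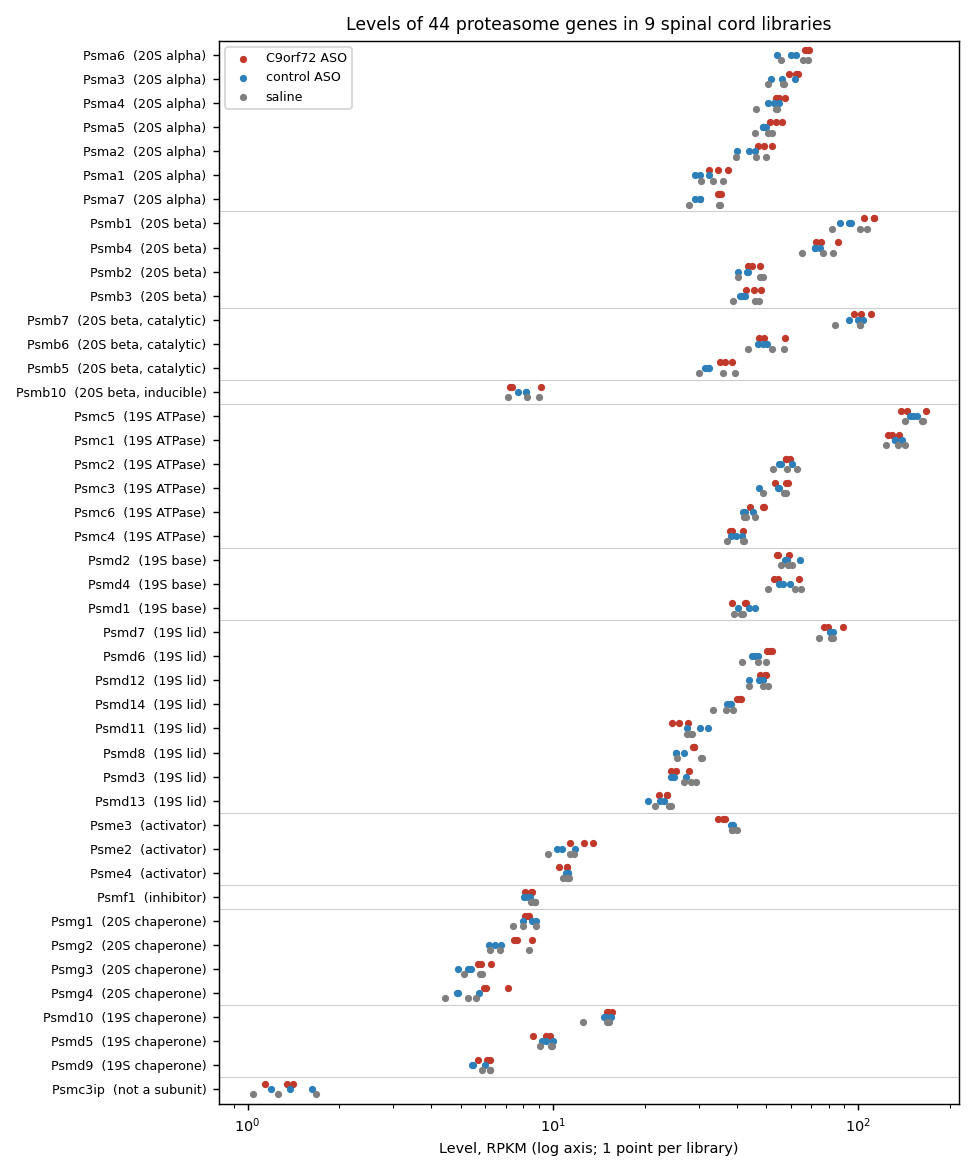
Level of each of 44 members in each of 9 libraries, in RPKM on a log axis, with genes grouped by role and 1 point per library (red C9orf72 ASO, blue control ASO, grey saline). The points of 1 gene lie close together beside the 113-fold span between Psmc5 and Psmc3ip. Psmb10 and the assembly chaperones among the members lie left of the 20S and 19S subunits.

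In the alpha ring, which forms the gate of the barrel, the order ran from Psma6 with a mean of 63.5 RPKM to Psma7 with 32.5 RPKM. Psma6 had 68.1, 69.0 and 66.8 RPKM in the C9orf72 ASO libraries, 62.4, 60.2 and 54.3 RPKM in the control ASO libraries and 66.0, 56.0 and 68.4 RPKM in the saline libraries. Psma7 had 35.4, 34.6 and 34.9 RPKM in the C9orf72 ASO libraries, 30.3, 30.4 and 29.2 RPKM in the control ASO libraries and 35.3, 27.8 and 35.0 RPKM in the saline libraries. In both genes each C9orf72 ASO library was above each control ASO library, while saline replicate 2 was the lowest or next to lowest and the other saline libraries lay near the C9orf72 ASO ones.

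Among the structural beta subunits Psmb1 was highest, at 99.3 RPKM, and Psmb3 lowest, at 43.7 RPKM. Psmb1 had 112, 104 and 112 RPKM in the C9orf72 ASO libraries, 93.0, 94.8 and 86.8 RPKM in the control ASO libraries and 101, 81.8 and 106.8 RPKM in the saline libraries. Psmb3 had 45.5, 42.99 and 48.0 RPKM in the C9orf72 ASO libraries, 41.6, 40.8 and 42.6 RPKM in the control ASO libraries and 47.1, 38.7 and 46.0 RPKM in the saline libraries. Both again separated the C9orf72 ASO libraries from the control ASO libraries and not from the saline libraries.

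The catalytic sites of the constitutive core lie in Psmb5, which cuts after hydrophobic residues, Psmb6, which cuts after acidic ones, and Psmb7, which cuts after basic ones. Psmb7 had 96.8, 102 and 109.7 RPKM in the C9orf72 ASO libraries, 99.6, 93.2 and 103 RPKM in the control ASO libraries and 101, 84.0 and 101 RPKM in the saline libraries. Psmb6 had 49.0, 47.4 and 57.4 RPKM in the C9orf72 ASO libraries, 48.7, 46.8 and 50.1 RPKM in the control ASO libraries and 56.9, 43.5 and 52.0 RPKM in the saline libraries. Psmb5 had 35.3, 36.6 and 38.5 RPKM in the C9orf72 ASO libraries, 32.3, 32.3 and 31.4 RPKM in the control ASO libraries and 39.5, 30.0 and 35.9 RPKM in the saline libraries. Psmb7 thus stood highest and Psmb5 lowest of the catalytic genes in each of the 9 libraries. Psmb5 separated the C9orf72 ASO libraries from the control ASO libraries, and for Psmb6 and Psmb7 all 3 groups overlapped. Reads shared with processed pseudogenes of Psma5, Psmb5, Psmb6 and Psmb7 make these levels uncertain, since how the authors counted such reads is not given in the sources used here.

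Psmb10 takes the place of Psmb7 in the immunoproteasome, a form that interferon induces in many cells. Psmb10 had 7.36, 7.24 and 9.13 RPKM in the C9orf72 ASO libraries, 8.14, 8.15 and 7.67 RPKM in the control ASO libraries and 8.997, 7.11 and 8.21 RPKM in the saline libraries. This was 8.09% of the Psmb7 level on average, with 7.60%, 7.08% and 8.32% in the C9orf72 ASO libraries, 8.17%, 8.75% and 7.43% in the control ASO libraries and 8.92%, 8.47% and 8.09% in the saline libraries. The groups overlapped, so the balance of Psmb10 and Psmb7 did not separate the treatments. Psmb8, which lies outside the rule and replaces Psmb5, was at 3.81% of the Psmb5 level on average. This share was 3.52%, 3.62% and 3.66% in the C9orf72 ASO libraries and 3.77%, 4.06% and 3.90% in the control ASO libraries. In the saline libraries it was 3.37%, 4.44% and 3.90%. The C9orf72 ASO libraries thus lay below the control ASO libraries, while the saline libraries spanned both, and the ratio was not tested. The fold change of Psmb10 was -0.02 on the log2 scale against the control ASO (95% interval -0.24 to 0.20) and -0.04 against saline (-0.26 to 0.19).

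The ATPases of the 19S base held the 2 highest members. Psmc5 had 138, 144 and 166 RPKM in the C9orf72 ASO libraries, 155, 147 and 151 RPKM in the control ASO libraries and 161, 142 and 163 RPKM in the saline libraries, and the lowest ATPase gene, Psmc4, had 38.4, 37.9 and 41.8 RPKM in the C9orf72 ASO libraries, 41.6, 39.7 and 38.4 RPKM in the control ASO libraries and 42.3, 37.2 and 41.8 RPKM in the saline libraries. The groups overlapped in both. Of the base subunits without ATPase activity, Psmd2 and Psmd1 form the scaffold that receives ubiquitin-like domains and Psmd4 is a ubiquitin receptor. Psmd2 had 54.7, 54.3 and 59.5 RPKM in the C9orf72 ASO libraries, 64.4, 57.4 and 58.4 RPKM in the control ASO libraries and 55.8, 59.0 and 60.8 RPKM in the saline libraries. Psmd1 had 38.6, 42.8 and 42.7 RPKM in the C9orf72 ASO libraries, 43.7, 40.4 and 45.8 RPKM in the control ASO libraries and 39.1, 41.1 and 41.8 RPKM in the saline libraries. Here too no group stood apart.

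In the lid, Psmd7 is the partner of the deubiquitinating subunit Psmd14. Psmd7 had 77.0, 79.6 and 88.9 RPKM in the C9orf72 ASO libraries, 81.2, 80.8 and 82.5 RPKM in the control ASO libraries and 82.5, 74.1 and 81.1 RPKM in the saline libraries. Psmd14 had 41.1, 40.0 and 41.2 RPKM in the C9orf72 ASO libraries, 38.0, 37.1 and 38.3 RPKM in the control ASO libraries and 36.9, 33.3 and 38.9 RPKM in the saline libraries. Psmd13, the lowest of the lid genes, had 23.7, 22.3 and 23.6 RPKM in the C9orf72 ASO libraries, 23.2, 22.4 and 20.4 RPKM in the control ASO libraries and 24.4, 21.5 and 23.9 RPKM in the saline libraries. Psmd7 and Psmd13 overlapped between groups, whereas Psmd14 was higher in each C9orf72 ASO library than in each of the other 6.

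The alternative caps and the regulators other than Psme3 were less abundant than the core and the 19S particle. Psme3, the nuclear activator PA28 gamma, averaged 37.7 RPKM, and Psme4, the activator PA200, 11.04 RPKM. Psme3 had 34.7, 36.6 and 36.0 RPKM in the C9orf72 ASO libraries, 38.9, 38.2 and 38.6 RPKM in the control ASO libraries and 38.4, 38.5 and 39.9 RPKM in the saline libraries. Psme4 had 11.1, 11.1 and 10.4 RPKM in the C9orf72 ASO libraries, 11.2, 11.2 and 11.1 RPKM in the control ASO libraries and 10.8, 11.3 and 11.1 RPKM in the saline libraries. Psme3 was lower in each C9orf72 ASO library than in each of the other 6, and Psme4 overlapped. Psme2, a subunit of the interferon-induced activator PA28, averaged 11.4 RPKM and is uncertain, because it has a near-identical copy, Psme2b. The inhibitor Psmf1 (PI31) had 8.52, 8.46 and 8.12 RPKM in the C9orf72 ASO libraries, 8.26, 8.41 and 8.05 RPKM in the control ASO libraries and 8.75, 8.44 and 8.71 RPKM in the saline libraries. Its control ASO libraries lay below all saline libraries.

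The chaperones Psmg1 to Psmg4 build the alpha ring, and Psmd5, Psmd9 and Psmd10 build the 19S base; none remains in the finished particle. Psmg1 had 8.37, 8.10 and 8.28 RPKM in the C9orf72 ASO libraries, 8.54, 8.003 and 8.82 RPKM in the control ASO libraries and 8.78, 7.38 and 7.98 RPKM in the saline libraries. Psmg4 had 5.95, 6.04 and 7.14 RPKM in the C9orf72 ASO libraries, 4.86, 4.88 and 5.74 RPKM in the control ASO libraries and 5.59, 4.45 and 5.27 RPKM in the saline libraries. Psmg1 overlapped between groups and Psmg4 was higher in each C9orf72 ASO library than in the other 6. Psmd10, also known as gankyrin, had 14.99, 15.1 and 15.6 RPKM in the C9orf72 ASO libraries, 14.6, 15.4 and 14.9 RPKM in the control ASO libraries and 15.1, 12.5 and 15.2 RPKM in the saline libraries. Psmd9 had 6.07, 5.69 and 6.22 RPKM in the C9orf72 ASO libraries, 5.45, 5.45 and 6.00 RPKM in the control ASO libraries and 6.21, 5.84 and 6.21 RPKM in the saline libraries. Neither separated a group from the other groups. Psmc3ip had 1.35, 1.40 and 1.14 RPKM in the C9orf72 ASO libraries, 1.196, 1.62 and 1.37 RPKM in the control ASO libraries and 1.67, 1.04 and 1.26 RPKM in the saline libraries and was lowest in each library, with a coefficient of variation of 15.7%.

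In the order of levels over all 44 members, the ranges of most neighbours met. Of 43 neighbouring pairs, 4 had ranges over the 9 libraries that did not meet, and in 13 the upper gene was higher in all 9 libraries. The gaps lay between Psmc1 and Psmb1, between Psmd13 and Psmd10, between Psme4 and Psmd5, and between Psmg4 and Psmc3ip. The members' median coefficient of variation over the libraries was 7.0%, against 7.92% for all genes tested. By class it was 6.10% for the 19S particle, 8.16% for the constitutive 20S core and 10.1% for the chaperones of the alpha ring.

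Knockdown of C9orf72 gave no proteasome gene that passed the test. The test was limma on log2(RPKM + 0.1) over all 14430 genes, with a Benjamini-Hochberg adjusted p under 0.05 as threshold. Against the control ASO, 0 of 44 members were called, with 0.0693% of all genes called, and 12 had an unadjusted p under 0.05, of which 11 were higher (background 6.39%) and 1 lower (background 7.71%). Without trend and robust estimation limma also called 0, with 8 at an unadjusted p under 0.05. Fold changes ran from -0.20 in Psmd11 to 0.30 in Psmg4 on the log2 scale. The 95% intervals of the 43 proteasome genes lay between -0.35 and 0.53, and that of Psmc3ip reached -0.46.

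The small differences leaned upward in the 20S core. All 14 constitutive 20S subunits had a fold change above 0 against the control ASO (10 of 14 with trends on transcript length and GC content removed), with a median of 0.13, and 10 of 17 19S subunits did, with a median of 0.02. Over all 44 members 31 were above 0 and the median was 0.08, beside 45.8% of all genes above 0 and a median of -0.01. The C9orf72 ASO libraries of 14 members lay above every control ASO library (background 10.1%), and those of 1, Psme3, lay below (background 11.8%). Of the 14, 8 were 20S core subunits and 3 were chaperones of the alpha ring. Without C9orf72 ASO replicate 3 the count of 20S subunits above 0 was 13 and the 19S median turned to -0.04, and without control ASO replicate 1 the 19S median was 0.07.

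**Figure D2:**
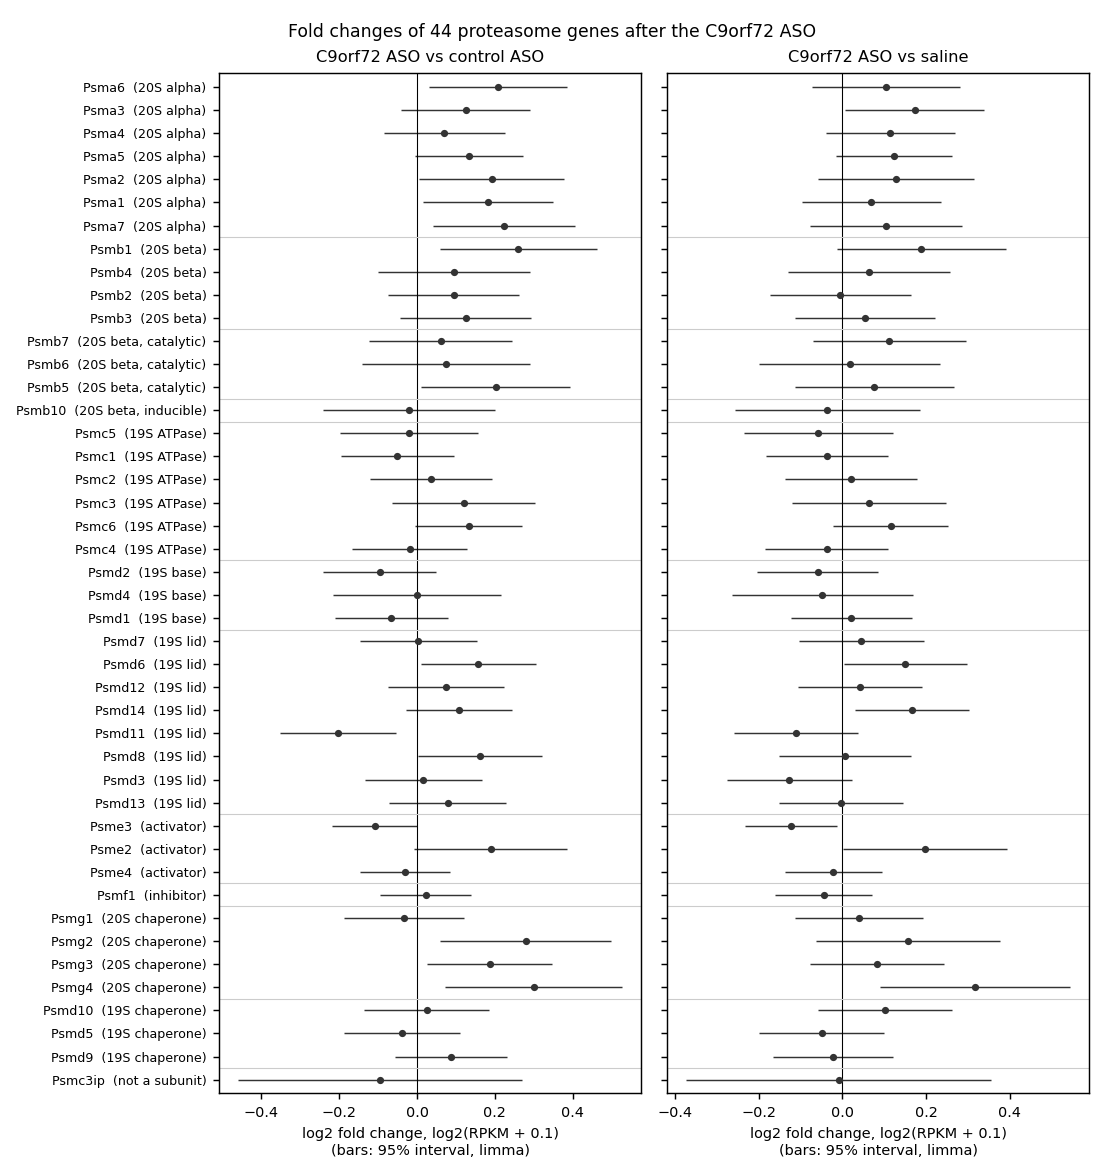
Log2 fold change of each of 44 members with its 95% interval, C9orf72 ASO against control ASO (left) and against saline (right), with genes grouped by role. All 14 constitutive 20S subunits lie right of 0 on the left (10 of 14 with length and GC trends removed), and no member passes the adjusted threshold in either panel.

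The 3 members with the smallest p against the control ASO were Psmd11, Psmg4 and Psmb1. Psmd11, a lid subunit that clamps the lid to the base and the core, had 24.6, 25.8 and 27.7 RPKM in the C9orf72 ASO libraries, 27.5, 32.2 and 30.3 RPKM in the control ASO libraries and 27.5, 28.3 and 28.5 RPKM in the saline libraries. The highest C9orf72 ASO library lay just above the lowest library of each other group, and the fold change was -0.20 ± 0.07 (SE, adjusted p = 0.265). Psmg4 differed by 0.30 ± 0.10 (adjusted p = 0.27) and Psmb1 by 0.26 ± 0.09 (adjusted p = 0.277), with libraries that did not overlap. None of the 3 passed.

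Among the other members with an unadjusted p under 0.05, the alpha subunits Psma1, Psma2, Psma6 and Psma7 had fold changes of 0.18, 0.19, 0.21 and 0.22, with adjusted p between 0.287 and 0.349. The catalytic Psmb5 had a fold change of 0.20 (95% interval 0.01 to 0.39, adjusted p = 0.333), against 0.07 (-0.14 to 0.29) for Psmb6 and 0.06 (-0.12 to 0.24) for Psmb7. The 19S ATPases had a median of 0.01, and the 4 chaperones of the alpha ring a median of 0.23, with Psmg1 alone of them below 0, at -0.03. Psmg2 and Psmg3 had fold changes of 0.28 and 0.19, and the lid subunits Psmd6 and Psmd8 of 0.16 and 0.16, all with an unadjusted p under 0.05 and adjusted p between 0.28 and 0.35.

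Against saline no proteasome gene passed either. Limma called 0 of 44 members (0.0693% of all genes), with 6 at an unadjusted p under 0.05, 5 higher (background 3.79%) and 1 lower (background 10.2%), and without trend and robust estimation it called 0, with 3 at an unadjusted p under 0.05. The median of the 44 was 0.04, beside -0.03 for all genes. The C9orf72 ASO libraries of 4 members, Psmg4, Psmd14, Psma3 and Psmd6, lay above every saline library (background 5.61%), and those of Psme3 lay below (background 12.4%). Psmg4 differed by 0.32 ± 0.10 (SE, adjusted p = 0.244), Psmd14 by 0.17 ± 0.06 (adjusted p = 0.275) and Psme3 by -0.12 ± 0.05 (adjusted p = 0.312). The others of the 6 were Psma3, Psmd6 and Psme2, with fold changes of 0.17, 0.15 and 0.20. Of the 14 20S subunits 13 had a fold change above 0, as did 41.3% of all genes, and without saline replicate 2 this was 8, with the median of all 44 at -0.02.

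The control ASO against saline asks what an oligonucleotide without this target does. Limma called 0 of 44 members (0.00693% of all genes), and 0 had an unadjusted p under 0.05, also without trend and robust estimation (background 1.37% higher and 3.98% lower). No member's control ASO libraries lay above all saline libraries (background 3.16%), and those of Psmf1 lay below (background 7.15%). The smallest p belonged to the lid subunits Psmd8 and Psmd3 and the chaperone Psmd9. Psmd8 had 28.8, 29.0 and 28.9 RPKM in the C9orf72 ASO libraries, 25.3, 26.9 and 25.2 RPKM in the control ASO libraries and 30.7, 25.4 and 30.4 RPKM in the saline libraries, with a fold change of -0.16 (adjusted p = 0.794). Psmd3 had 25.2, 24.4 and 27.8 RPKM in the C9orf72 ASO libraries, 27.3, 24.4 and 24.9 RPKM in the control ASO libraries and 29.4, 26.9 and 28.2 RPKM in the saline libraries, with -0.14 (adjusted p = 0.794). Psmd9 was at -0.11 (adjusted p = 0.794). The median of the 44 was -0.02, equal to that of all genes. Without saline replicate 2 it was -0.08, beside -0.03 for all genes. All 14 20S subunits were then below 0 and 10 members had an unadjusted p under 0.05, with 0 called. In the same setting 59 of 75 ribosomal protein genes (median -0.23) and 30 of 82 respiratory chain genes (median -0.13) had such a p. The share of all genes with such a p is not given for this setting.

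Against both control groups together, limma called 0 of 44 members (0.173% of all genes), with 13 at an unadjusted p under 0.05, 11 higher (background 5.87%) and 2 lower (background 10.9%), Psmd11 and Psme3, and 0 called and 9 at an unadjusted p under 0.05 without trend and robust estimation. Only Psmg4, Psmd6 and Psmd14 had C9orf72 ASO libraries above all 6 others (background 2.82%), and Psme3 was below all 6 (background 5.05%). Psmg4 had the smallest p, with a fold change of 0.31 ± 0.09 (SE, adjusted p = 0.163), ahead of Psmb1 with 0.22 ± 0.08 (adjusted p = 0.211) and Psme3 with -0.12 ± 0.04 (adjusted p = 0.225). These comparisons share their C9orf72 ASO or control libraries and are not independent of each other.

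On the deposited values saline replicate 2 stood apart for these genes. It was the lowest of the 9 libraries in 25 of 43 proteasome genes, among them 12 of 14 20S core subunits and 8 of 17 19S subunits, against 12.5% of all genes tested. The median deviation of the 43 genes from their 9-library mean was -0.15 on the log2 scale in this library, and -0.20 for the 20S core, while the median of all genes was 0.01. Ribosomal protein genes (75, median -0.25) and respiratory chain genes (82, median -0.20) were low in it too. With trends on transcript length and GC content removed from each library, it was the lowest in 11 of 43 proteasome genes, beside 10.9% of all genes, and the median deviation was -0.05. Control ASO replicate 3 was then the lowest in 12 of 43, beside 14.3% of all genes. The cause was not tested.

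**Figure D3:**
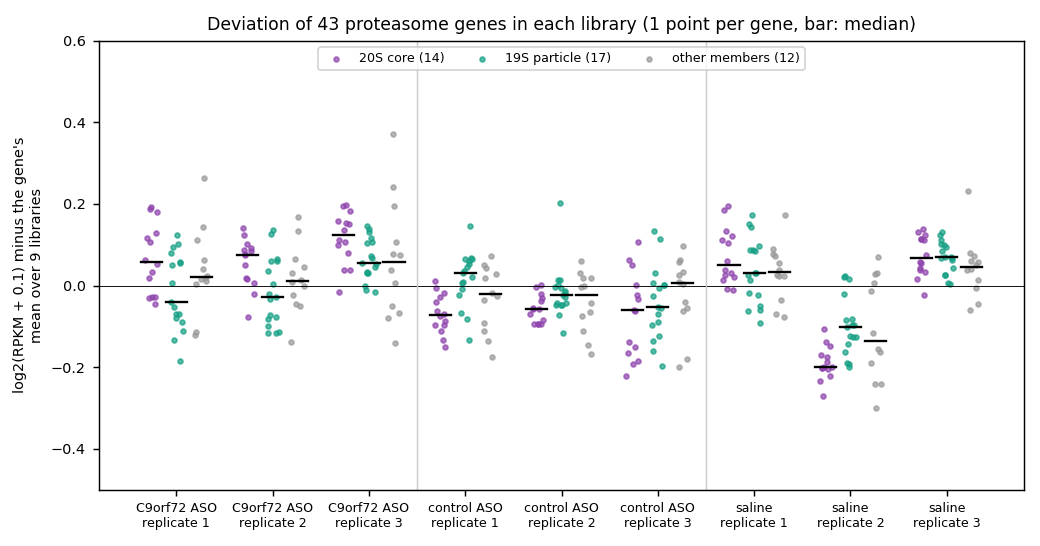
Log2 deviation of the members from their 9-library mean in each library, by class, with the C9orf72 ASO libraries at the left and the saline libraries at the right. Saline replicate 2 lies lowest, at a median of -0.20 for the 20S core, and the C9orf72 ASO libraries lie above the control ASO libraries in this class.

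The balance of core and cap was followed as the mean log2 level of the 14 20S subunits minus that of the 17 19S subunits. It was 0.18, 0.17 and 0.15 in the C9orf72 ASO libraries, 0.01, 0.06 and 0.07 in the control ASO libraries and 0.14, 0.01 and 0.10 in the saline libraries. The C9orf72 ASO libraries lay above the other 6, by a small margin to saline replicate 1. With the trends on length and GC content removed it was 0.157, 0.142 and 0.120 in the C9orf72 ASO libraries, 0.040, 0.064 and 0.088 in the control ASO libraries and 0.127, 0.058 and 0.096 in the saline libraries, and saline replicate 1 then lay among the C9orf72 ASO libraries. No test was made of this value, which was built after the fold changes of both classes were known.

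**Figure D4:**
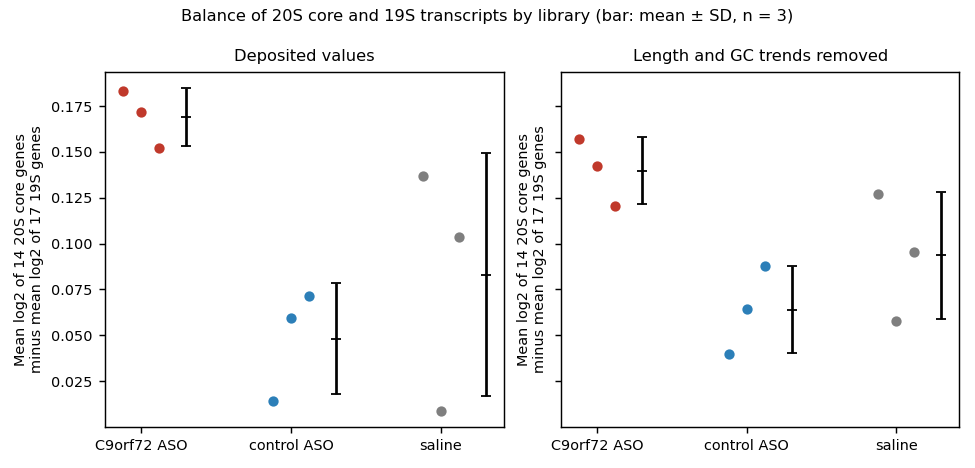
Mean log2 level of 14 20S core genes minus that of 17 19S genes in each library, from the deposited values (left) and with trends on length and GC content removed (right), with points for libraries and bars for the mean ± SD (n = 3). The C9orf72 ASO libraries, at 0.15 to 0.18, lie above the others on the left and overlap saline replicate 1 on the right.

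Proteasome transcripts are short, and against the control ASO length moved with the fold change across the whole table. The median length of the longest annotated transcript (GENCODE vM21) was 1705 bases for the 44 members and 3395 bases for all genes tested. Against the control ASO the fold change and log2 length had r = -0.26 across 13970 genes and r = -0.44 across the 44 members, given as a description, since genes share libraries and are not replicates. Against saline r was -0.07 across all genes and -0.47 across the members, and for the control ASO against saline it was 0.23 across all genes and 0.09 across the members. With the genes in 20 bins of length, the bin of the shortest transcripts (median 703 bases) had a median fold change of 0.16 and the bin of the longest had -0.12. With trends on length and GC content removed, the median of the 44 members was 0.02 against the control ASO and 0.01 against saline, 10 of 14 20S subunits were above 0 and the median of the core was 0.05. Psmg4, at 555 bases the shortest member, had a fold change of 0.16 against the control ASO with these trends removed.

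**Figure D5:**
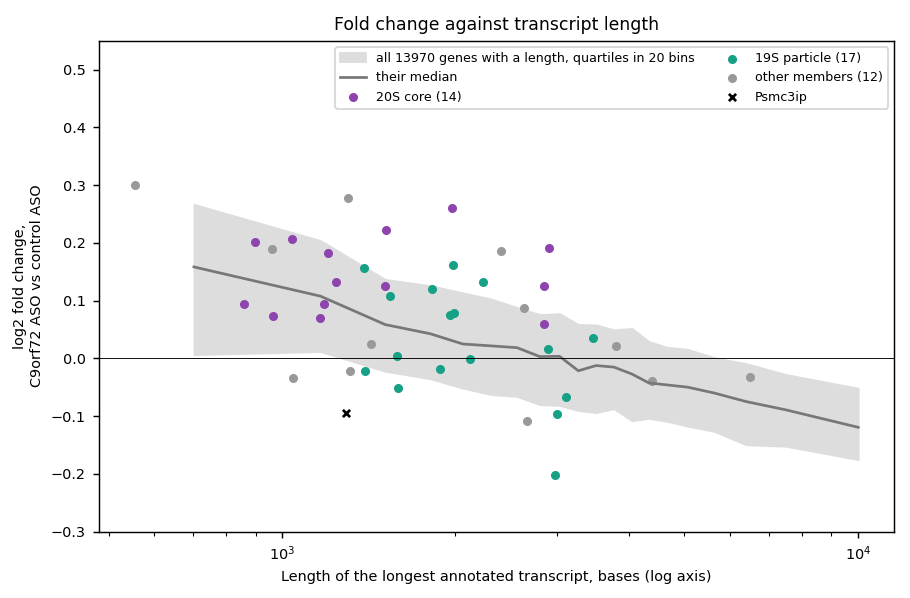
Log2 fold change, C9orf72 ASO against control ASO, of each member against the length of its longest annotated transcript in bases (log axis), over the median (line) and quartiles (grey band) of 13970 genes in 20 bins of length. The band falls with length, with medians between 0.16 and -0.12, and the 20S core genes lie at short lengths.

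Ribosomal protein genes (median length 1106 bases) and respiratory chain genes had medians above 0 too. Against the control ASO the 75 ribosomal protein genes had a median of 0.22, with 0 called and 44 higher at an unadjusted p under 0.05, and the 82 respiratory chain genes tested a median of 0.14, with 0 called and 26 higher at that p (background 6.39%). Single libraries moved these counts. With C9orf72 ASO replicate 1 left out 26 ribosomal protein genes had such a p, and with replicate 1 or 3 of the control ASO left out 28 or 19 did. Leaving out saline replicate 2 gave 61, of which 1 was called. Of the respiratory chain genes 14 to 17 had such a p when any C9orf72 ASO library was left out, and 14 or 9 when replicate 1 or 3 of the control ASO was. Without trend and robust estimation limma called 0 in both, with 39 and 17 at an unadjusted p under 0.05. With the trends on length and GC content removed the ribosomal protein genes had a median of 0.12 and the respiratory chain genes of 0.04. On the deposited values the members' median of 0.08 lay below both.

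The genes that work with the proteasome, read from 5 lists, gave 0 calls in limma against the control ASO and against saline, also without trend and robust estimation. Of 9 associated factors, 2 had an unadjusted p under 0.05 against the control ASO, both higher (background 6.39%), and with replicate 2 or 3 of the control ASO left out 1 or 0 did. Pomp, the chaperone that completes the beta ring, had 89.4, 90.2 and 92.5 RPKM in the C9orf72 ASO libraries, 76.7, 82.6 and 68.9 RPKM in the control ASO libraries and 87.7, 69.3 and 88.0 RPKM in the saline libraries, with a fold change of 0.26 ± 0.10 (SE, adjusted p = 0.287). Sem1, a small subunit of the lid, had 95.3, 94.7 and 106 RPKM in the C9orf72 ASO libraries, 86.0, 83.0 and 85.3 RPKM in the control ASO libraries and 87.1, 71.2 and 89.2 RPKM in the saline libraries, with 0.22 ± 0.09 (adjusted p = 0.302). In both genes the C9orf72 ASO libraries lay above all others (background 2.82%). Both were named for their small p, to which such a separation is tied.

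The 8 ubiquitin shuttles and unfoldase genes were all below 0 against the control ASO, with a median of -0.04 and 2 lower at an unadjusted p under 0.05 (background 7.71%), beside 45.8% of all genes above 0 and an all-gene median of -0.01. Nploc4, a cofactor of the unfoldase Vcp, had 14.9, 16.4 and 16.3 RPKM in the C9orf72 ASO libraries, 17.8, 18.6 and 17.9 RPKM in the control ASO libraries and 18.5, 18.0 and 17.6 RPKM in the saline libraries, with a fold change of -0.19 (adjusted p = 0.247). Ubqln4, which carries ubiquitinated proteins to the proteasome, had 19.5, 21.8 and 21.5 RPKM in the C9orf72 ASO libraries, 23.6, 23.8 and 24.0 RPKM in the control ASO libraries and 23.3, 24.0 and 23.3 RPKM in the saline libraries, with -0.19 (adjusted p = 0.247). Their C9orf72 ASO libraries lay below all others (background 5.05%), and both genes were named for their small p.

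Among the genes for ubiquitin and its activating enzymes, Rps27a encodes ubiquitin fused to a ribosomal protein. It is also 1 of the 75 ribosomal protein genes, whose median against the control ASO was 0.22. Its longest annotated transcript has 928 bases. Rps27a had 173, 166 and 180.0 RPKM in the C9orf72 ASO libraries, 143, 151 and 155 RPKM in the control ASO libraries and 159, 124 and 159 RPKM in the saline libraries, with a fold change of 0.21 ± 0.09 (SE) against the control ASO (adjusted p = 0.343). It was higher in each C9orf72 ASO library than in each of the other 6 (background 2.82%).

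Of 8 transcriptional regulators, 1 was higher (background 6.39%) and 4 were lower (background 7.71%) at an unadjusted p under 0.05 against the control ASO, with 0 called. In place of 5 in all, 2 had such a p with C9orf72 ASO replicate 1 left out, and also with replicate 1 or 2 of the control ASO left out. Leaving out C9orf72 ASO replicate 2, or replicate 3 of the control ASO, gave 3. Nfe2l1 had 84.5, 90.1 and 95.2 RPKM in the C9orf72 ASO libraries, 111, 98.7 and 102 RPKM in the control ASO libraries and 95.7, 105 and 99.2 RPKM in the saline libraries, with a fold change of -0.21 ± 0.07 (adjusted p = 0.266). Its C9orf72 ASO libraries lay below all others (background 5.05%). Nfe2l2, the stress factor Nrf2, had 11.7, 11.9 and 12.1 RPKM in the C9orf72 ASO libraries, 9.62, 11.3 and 9.64 RPKM in the control ASO libraries and 9.98, 9.64 and 10.5 RPKM in the saline libraries, with 0.22 ± 0.07 (adjusted p = 0.249). Its C9orf72 ASO libraries lay above all others (background 2.82%). The other 3 were Ddi2, the protease that activates Nfe2l1, and the partner proteins Mafg and Mafk, named after their values were seen, with fold changes of -0.15, -0.14 and -0.17. With trends on length and GC content removed, 2 of the 8 had an unadjusted p under 0.05 and the median of the list was -0.04, against -0.15 on the deposited values.

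Of 5 inducible and peptide loading genes tested, 1 was higher at an unadjusted p under 0.05 against the control ASO (background 6.39%). B2m, the light chain of MHC class I, had 166, 164 and 151 RPKM in the C9orf72 ASO libraries, 125, 142 and 126 RPKM in the control ASO libraries and 139.6, 123 and 136 RPKM in the saline libraries, with a fold change of 0.30 ± 0.07 (adjusted p = 0.234). Tapbp, which loads peptides onto MHC class I, was at -0.11 (adjusted p = 0.448). B2m was above all other libraries in the C9orf72 ASO group (background 2.82%). It was named for its small p, to which such a separation is tied, and its longest annotated transcript has 860 bases. In the C9orf72 ASO group the summed microglia markers were also highest, and the part of these cells was not tested.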

How the data were processed

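Libraries were strand-specific and made from Trizol-extracted RNA, per the labels' protocols. The submitters' processing notes name cutadapt (1.2.1), GSNAP and the build mm9. The sources used here name neither the counter nor the annotation. The deposited table has no unit in its header. Its values were taken as RPKM computed by the authors, since 61.8% to 72.7% of values of genes up to 350 bases, times length, fell within 0.1 of a whole read. The depth used for each library was the one that made this share largest, so the share is no independent check of the unit. Values under 0.5 stand at 0.1, which limits low genes before depth does.

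Symbols were found for 14321 of 14831 gene IDs. The test was limma 3.58.1 (R 4.3.3, statmod 1.5.0; mean trend, robust) on log2(RPKM + 0.1), 1 fit of 9 libraries, for 14430 genes with at least 0.5 RPKM in 3 libraries, adjusted by Benjamini-Hochberg over all of them; a fold change on this scale understates changes of low genes. In simulated data, with genes drawn independently, this test recovered 35.8% of genes changed 1.25-fold and 85.6% of those changed 1.5-fold. Changes as small as 1.25-fold were thus mostly missed there. The simulation held 200 changed genes, at 1.25, 1.5, 2 and 4-fold, whereas the comparison with the control ASO itself called 10 genes. With fewer called genes the adjusted threshold asks for a smaller p, so these shares may overstate what the test could find in the data. Lengths and GC contents came from GENCODE vM21 (GRCm38), for 13970 genes, and no position was carried between builds. Marker genes and related genes without a row (Aif1, Ttr, Slc18a3, Cd3e, Cd79a, Hbb-b1, Psmb9) and Paaf1 were not analysed here. Named were C9orf72, the catalytic subunits and Psmb10, the highest and lowest member of each role, the 3 members with the smallest p in each comparison and, from each related list, the 2 with the smallest p; further members appear where a count is small. For 1 related list a single result is not reported here. In the marker lists, 1 blood gene was called lower with the C9orf72 ASO than with the control ASO and than with both control groups, 1 blood gene higher with the control ASO than with saline, and 1 microglia gene higher with the C9orf72 ASO than with both control groups. The other marker lists held 0 called genes. Members and lists were chosen with earlier results of these data known. Alternatives covered the filter, pseudocount, test, samples, scaling, length and GC trends, members and each library left out.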

Additional observations from a re-analysis of the deposited data

How the results depend on the processing

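No member was called in any of the 4 comparisons under any alternative, and the smallest adjusted p of any member was 0.0702 against the control ASO, 0.178 against saline, 0.124 against both control groups and 0.128 for the control ASO against saline. Members at an unadjusted p under 0.05 numbered 4 (without control ASO replicate 3) to 17 (without saline replicate 2) of 44 against the control ASO, 1 to 8 against saline, 3 to 16 against both and 0 to 10 for the control ASO against saline. Leaving out 1 library gave medians of 0.05 to 0.10 against the control ASO, -0.02 (without saline replicate 2) to 0.10 (without saline replicate 1) against saline, 0.02 (without saline replicate 2) to 0.09 against both and -0.08 (without saline replicate 2) to 0.01 (without saline replicate 3) for the control ASO against saline. Against saline the median was 0.08 without saline replicate 3 and 0.03 without C9orf72 ASO replicate 3, and against both it was 0.04 without C9orf72 ASO replicate 3. For the control ASO against saline it was -0.05 without control ASO replicate 1 and -0.01 without saline replicate 1. The median deviation of the members varied between libraries of a group by 0.03 (SD) with the C9orf72 ASO, 0.01 with the control ASO and 0.12 with saline, so that the pooled SD of 0.07 rests on the saline group. Removal of length and GC trends gave medians of 0.02 against the control ASO, 0.01 against saline, 0.01 against both and 0.02 for the control ASO against saline, where the sign differs from the -0.02 on the deposited values; the cause was not tested. The span of levels was 27.4-fold without Psmc3ip, against 113-fold with it. The fold change of C9orf72 stayed between -1.91 and -1.58. No paired analysis was possible because the labels carry no replicate numbers, and those used here only name libraries in the order of their records. A fit of only the groups compared is the same as the fit of all groups for the comparison with both control groups and was not run there. The 95% intervals of the members against the control ASO reached -0.46 in Psmc3ip and 0.53 in Psmg4.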
